A study of Homo sapiens with 12 samples.

Results

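Hep3B, a human hepatocellular carcinoma cell line, was treated with WWL70 either alone or together with lenvatinib, and the comparison asks what lenvatinib adds once ABHD6 is inhibited. It rests on 4 of the 12 mRNA sequencing libraries of the study: the 2 libraries of cells given WWL70 at 20 µM and the 2 of cells given WWL70 at 20 µM plus lenvatinib, each pair named A1 and B1. The other 8 libraries are Hep3B controls, Hep3B cells given lenvatinib at 20 µM, Huh7 controls and lenvatinib-resistant Huh7 cells, again 2 of each. The dose of lenvatinib in the combination and the length of exposure are not stated in the labels. The 12468 genes of 20307 whose TPM, a length-scaled share of all transcripts, reached 1 in 2 or more of the 4 libraries were tested. The labels do not say that A1 and B1 were separate cultures, so p-values measure only the spread between these libraries, which may be technical.

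ABHD6 is a serine hydrolase that breaks down monoacylglycerols, including the endocannabinoid 2-arachidonoylglycerol, and WWL70 is a carbamate that blocks it. Lenvatinib blocks the kinase domains of receptors for VEGF, FGF and PDGF, and of RET and KIT. Such receptors signal through RAS and ERK, and the phosphatase DUSP6, the Sprouty proteins and the ETV transcription factors are read as the output of that route. Hepatocytes make most proteins of blood plasma, including albumin, fibrinogen, apolipoproteins and complement, and hepatocellular carcinoma lines keep part of that programme. TPM is scaled by transcript length, which allows levels of different genes to be set side by side only where a library has no trend with length. In bulk RNA, fewer cells of a kind and less RNA per cell cannot be told apart.

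The combination libraries were far less alike than those of any other group. Their median absolute difference on the log2(TPM + 1) scale was 0.823, against 0.135 for WWL70, 0.249 for lenvatinib alone, 0.114 for Hep3B controls, 0.110 for Huh7 controls and 0.325 for resistant Huh7 cells. Combination A1 stood apart by transcript length. Its deviation from the WWL70 mean had a Spearman correlation with length of -0.589 across genes, against -0.032 for combination B1, and genes are not independent replicates. In A1 the median log2 deviation ran from 0.64 in the tenth of genes with the shortest transcripts to -1.69 in the tenth with the longest. In B1 the same deciles lay at -0.04 and -0.11. A list of 30 ribosomal protein genes, not the whole class, took 5.11% of all TPM in combination A1 and 2.51% in B1. It took 3.68% and 3.79% in the WWL70 libraries. Mitochondrially encoded genes took 12.6% and 19.3% against 18.3% and 18.6%. The part of this length trend in the results was not tested beyond the fits without A1 and with the trend removed that are given below.

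**Figure D1:**
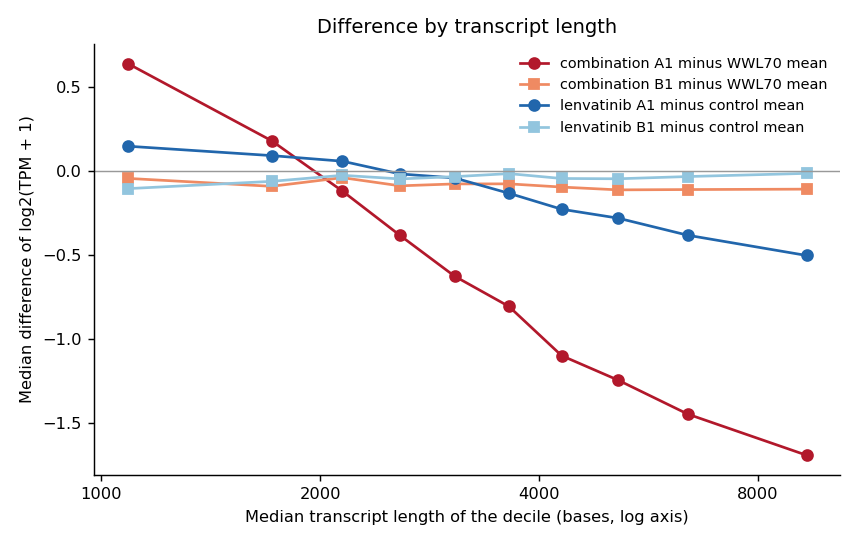
Median difference of log2(TPM + 1) from the WWL70 mean (combination libraries) or the control mean (lenvatinib libraries) on the y axis, by decile of transcript length in bases on a log x axis, with 1 line a library. Combination A1 runs from 0.64 in the shortest decile to -1.69 in the longest, lenvatinib A1 from 0.15 to -0.50, and combination B1 stays nearly flat, at -0.04 and -0.11.

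Lenvatinib on top of WWL70 was accompanied by higher RNA for plasma proteins. RNA was lower for most genes of ERK output, for endoplasmic reticulum chaperones and for genes of mitosis. limma, with the spread shared over all 12 libraries, gave a Benjamini-Hochberg adjusted p under 0.05 to 1111 of 12468 genes (8.91%), of which 324 (2.60%) rose and 787 (6.31%) fell. In all 1111 the combination libraries lay on the same side of both WWL70 libraries, which was true of 15.3% of tested genes in the upward and 41.1% in the downward direction. The median change of all tested genes was -0.37 (log2), at -0.67 in A1 and -0.09 in B1. Under median-ratio scaling that median was 0.01 and the calls split into 576 higher and 534 lower, so the surplus of falls is relative to the TPM scale. In this shared-spread fit 4294 of the 12468 genes had an unadjusted p under 0.05. The unadjusted counts of the lists below are to be read beside that share. The number of calls depends on whose spread is used. The combination libraries differ by more than the shared spread, so the shared-spread p-values are too small here. limma with array weights, which lets noisy libraries count for less, called 17 genes (0.136%). These 17 are named below, and no other call named here passed with array weights. A limma fit on the 4 libraries alone called 0 genes, with a smallest adjusted p of 0.338 and 1128 genes at an unadjusted p under 0.05. Without combination A1 464 genes rose (3.72%) and 699 fell (5.61%), and 826 of the 1111 were again called. With the length trend removed from each library 1277 rose (10.3%) and 1191 fell (9.60%), among the 12409 genes with an annotated length. The medians of the plasma protein, coagulation, apolipoprotein, NF-kB, ERK output, ATF4, chaperone, G2 and mitosis, adenosine and purine, and transporter lists below kept their sign in each combination library, under median-ratio, quantile and trimmed rescaling and with the length trend removed. The TGF-beta median of -0.53 was -0.007 after quantile normalization, and the oncofetal median of -1.13 was -1.37 in A1 and 0.45 in B1. Those of the urea cycle and drug metabolism lists turned above 0 under median-ratio scaling, at 0.39 and 0.10.

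The natriuretic peptide gene NPPB (chr1:11857464-11858931 in GENCODE 29 on GRCh38, as for all coordinates of genes), whose product is known from stretched heart muscle, had the largest rise. It was listed at 0 and 0.917 TPM with WWL70 and at 85.3 and 41.6 TPM with the combination (A1 and B1, the order used for every pair below), a log2 change of 5.45 ± 0.52 (SE, n = 2 libraries a group) with a limma adjusted p of 0.000995, and 0.267 with array weights. NPPB was under 1 TPM in both WWL70 libraries, so it entered the test only through the libraries where it is high and had to differ. Both combination libraries were far above both WWL70 libraries, with A1 at 5.96 and B1 at 4.94 from the WWL70 mean. HPX (chr11:6431049-6442617) encodes hemopexin, the plasma carrier of free haem. Its levels were 8.77 and 13.5 TPM with WWL70 and 480 and 293 TPM with the combination, a change of 4.98 ± 0.29 (limma adjusted p = 0.000211, and 0.0149 with array weights). APOA1, the main protein of high-density lipoprotein, went from 201 and 270 TPM to 10617 and 3293 TPM. Both combination libraries were far above WWL70, with A1 the higher. Its change was 4.66 ± 0.47, at 5.50 in A1 and 3.82 in B1. The synapse organiser CBLN2 was at 0.366 and 0.654 TPM with WWL70 and at 21.8 and 36.3 TPM with the combination. Here B1 was the higher library, and CBLN2, like NPPB, had to differ to be tested.

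Genes close to 0 with WWL70 rose too. ADH1A and PPP1R1A were under 1 TPM in both WWL70 libraries, so they were tested only through the combination libraries and had to differ. ADH1A, an alcohol dehydrogenase, had 0.101 and 0 TPM with WWL70 and 12.3 and 13 TPM with the combination, a rise of 3.70 ± 0.23 on the log2(TPM + 1) scale. Reads of ADH1A may be shared with its near-identical neighbours ADH1B and ADH1C. PPP1R1A, an inhibitor of protein phosphatase 1, went from 0.080 and 0.142 TPM to 16.2 and 10.8 TPM, a rise of 3.68 ± 0.24, and it overlaps PDE1B in the annotation. UBD (chr6:29555515-29559925), a ubiquitin-like modifier that marks proteins for the proteasome, was high already: 56.7 and 76.3 TPM with WWL70 and 853 and 797 TPM with the combination. Its rise of 3.63 ± 0.19 (limma adjusted p = 0.000162) was nearly the same in A1 (3.68) and B1 (3.58). UBD overlaps other annotated genes, and whether reads were counted by strand is not stated.

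NT5E (chr6:85449584-85495791), the ecto-enzyme CD73 that makes adenosine from AMP outside the cell, had the largest fall. It went from 92.2 and 76.1 TPM with WWL70 to 2.19 and 7.93 TPM with the combination, and fell by 3.99 ± 0.39 (limma adjusted p = 0.0012). Both combination libraries were low, A1 more so. SLCO1B3, a hepatocyte uptake transporter for bile acids and drugs, went from 21.2 and 22.9 TPM to 0.058 and 1.03 TPM, a change of -3.98 ± 0.31. HAL (chr12:95972662-95996365), which opens histidine breakdown, went from 72.8 and 71.0 TPM to 3.48 and 7.58 TPM, a change of -3.55 ± 0.31 (limma adjusted p = 0.000765, and 0.0706 with array weights). LOX, which cross-links collagen, was at 36.4 and 42.4 TPM with WWL70 and at 1.51 and 6.00 TPM with the combination, and it overlaps SRFBP1. GABRA2, a GABA receptor subunit, fell from 22.1 and 16.8 TPM to 0.584 and 1.98 TPM. RASSF9 fell from 19.7 and 13.3 TPM to 0.388 and 1.62 TPM. ANGPTL8, a secreted inhibitor of lipoprotein lipase that lies inside DOCK6, was the exception to the order of the libraries: it went from 958 and 1029 TPM to 188 in A1 and 65.5 in B1.

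**Figure D2:**
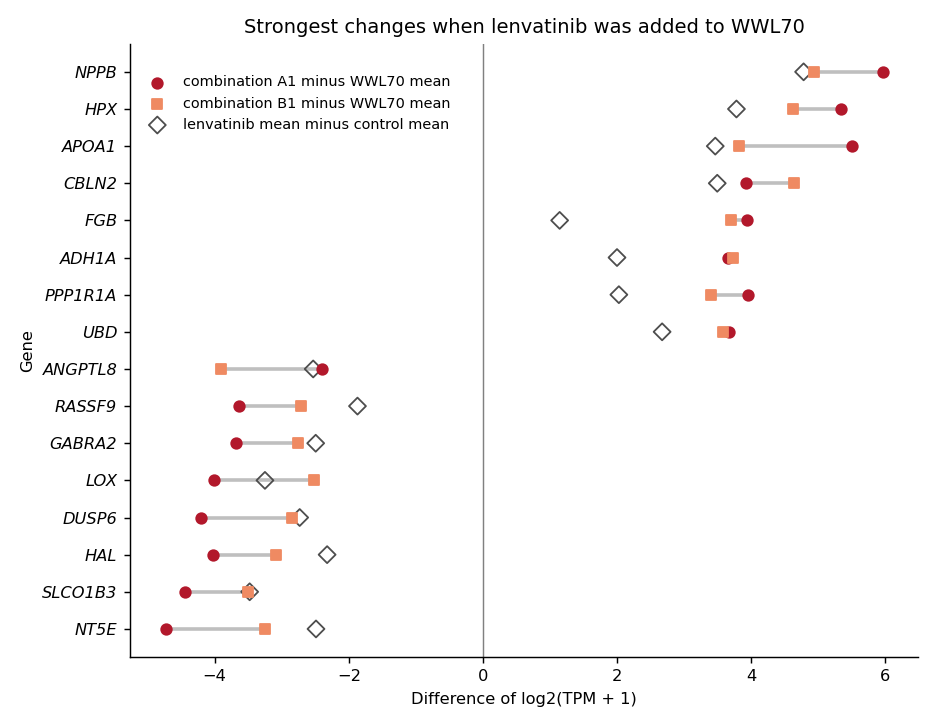
Difference of log2(TPM + 1) on the x axis for the 8 largest rises and the 8 largest falls, with combination A1 (circles) and B1 (squares) each against the WWL70 mean, joined by a grey line, and lenvatinib against the control mean as open diamonds. For NPPB A1 lies at 5.96, B1 at 4.94 and lenvatinib alone at 4.78, and every gene drawn has its 3 points on the same side of 0.

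Genes whose call rests on no single one of the 4 libraries were picked out after their values were seen. In 7 limma fits (all libraries, without each of the 4 libraries, with array weights, and with the length trend removed) 15 genes were called every time. The 10 that rose were ADH1A, APOA1, CBLN2, FGA, HPX, KNG1, PPP1R1A, SERPINF2, UBD and VTN, of which APOA1, FGA, HPX, KNG1, SERPINF2 and VTN encode secreted plasma proteins. Of these, ADH1A, CBLN2 and PPP1R1A were under 1 TPM in both WWL70 libraries and were tested only because they were high with the combination, so their calls carry no weight as support. The 5 that fell were DUSP6, NT5E, SLCO1B3, TCIM and THBS4. TCIM, a regulator of Wnt signalling, went from 62.7 and 62.0 TPM to 4.88 and 8.13 TPM, a change of -3.11 ± 0.23. THBS4, a thrombospondin of the extracellular matrix, went from 106 and 96.1 TPM to 8.90 and 16.7 TPM, a change of -2.95 ± 0.27. The other genes called with array weights were CEACAM1, a cell adhesion receptor, at 124 and 105 TPM against 6.52 and 22.1 TPM, and APOC3.

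Plasma protein genes rose as a group. Of 20 tested, 13 rose and 1 fell, with a median change of 1.48 (log2) beside -0.37 over all tested genes, and without combination A1 13 rose and 4 fell. SERPINA1, the antitrypsin gene, went from 3374 and 3294 TPM to 12442 and 10795 TPM, a rise of 1.80 ± 0.15. TF, the iron carrier transferrin, went from 1757 and 2153 TPM to 6832 and 9510 TPM, a rise of 2.05 ± 0.19, and it overlaps SRPRB. VTN, the adhesive plasma protein vitronectin, went from 288 and 350 TPM to 2634 and 1471 TPM, a rise of 2.63 ± 0.27, and it overlaps SARM1. As in every gene called higher, both combination libraries were above both WWL70 libraries in these. Of the 20 tested, called or not, 14 had both combination libraries above both WWL70 libraries, beside 15.3% of all tested genes. In 2 they lay below both, beside 41.1%. ALB, the albumin gene, rose from 10422 and 13338 TPM to 26958 and 37468 TPM. FETUB, a liver-made cystatin, was the only member called in the other direction, at 10.5 and 9.26 TPM with WWL70 and 1.06 and 1.96 TPM with the combination.

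Fibrinogen is a hexamer of 3 kinds of chain encoded side by side on chromosome 4. FGB (chr4:154562956-154571086), for the beta chain, went from 6.85 and 13.4 TPM to 162 and 137 TPM, a rise of 3.82 ± 0.26 (limma adjusted p = 0.000269). FGA, for the alpha chain, went from 62.9 and 75.2 TPM to 285 and 361 TPM, a rise of 2.21 ± 0.16. FGG, for the gamma chain, went from 169 and 183 TPM to 651 and 637 TPM, a rise of 1.87 ± 0.13. With WWL70 alone FGB lay far below its partners, and with the combination the order was still FGG, FGA, FGB. The promoters are shown because the chains moved together. They come from RefSeq on GRCh38.p14, run from 250 bases before to 50 after each gene's start, and are read 5′ to 3′ on the gene's strand.
FGA (chr4:154590693-154590992, minus strand): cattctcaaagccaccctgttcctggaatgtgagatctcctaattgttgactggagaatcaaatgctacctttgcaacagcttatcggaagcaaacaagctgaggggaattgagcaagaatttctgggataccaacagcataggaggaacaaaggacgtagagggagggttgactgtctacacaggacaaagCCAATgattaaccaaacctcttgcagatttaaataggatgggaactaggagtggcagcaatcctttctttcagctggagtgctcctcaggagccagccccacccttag
FGB (chr4:154562730-154563029, plus strand): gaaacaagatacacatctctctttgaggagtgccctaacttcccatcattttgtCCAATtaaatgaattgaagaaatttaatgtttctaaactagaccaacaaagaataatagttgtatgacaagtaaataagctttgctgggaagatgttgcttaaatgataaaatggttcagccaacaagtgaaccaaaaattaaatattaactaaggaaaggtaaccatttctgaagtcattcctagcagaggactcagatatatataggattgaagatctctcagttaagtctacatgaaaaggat
FGG (chr4:154612607-154612906, minus strand): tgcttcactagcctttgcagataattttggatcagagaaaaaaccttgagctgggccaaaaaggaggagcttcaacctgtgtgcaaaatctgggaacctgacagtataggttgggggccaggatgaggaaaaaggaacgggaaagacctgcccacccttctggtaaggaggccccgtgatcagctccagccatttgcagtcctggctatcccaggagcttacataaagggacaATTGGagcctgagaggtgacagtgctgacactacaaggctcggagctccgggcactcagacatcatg
Capitals mark the letters CCAAT, searched with its reverse complement ATTGG. They begin 58 bases before the start of FGA, 196 before that of FGB and, as ATTGG, 17 before that of FGG, and 34.6% of 35116 RefSeq promoters of this length hold them. The letters TTTGAA (reverse complement TTCAAA), searched too, are in none of these 3 windows.

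Of 17 tested genes of fibrinogen and coagulation 7 rose and 1 fell, with a median of 0.79 (log2), and without combination A1 8 rose and 2 fell. KNG1, kininogen, went from 56.8 and 73.0 TPM to 370 and 434 TPM, a rise of 2.62 ± 0.16 (limma adjusted p = 0.000211). SERPINF2, the plasma inhibitor of plasmin, went from 141 and 149 TPM to 913 and 622 TPM, a rise of 2.37 ± 0.20. The gene that fell was PROS1, the anticoagulant protein S, at 79.6 and 74.2 TPM against 21.6 and 50.8 TPM (limma adjusted p = 0.0495). Under median-ratio scaling the counts were 10 higher and 1 lower.

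**Figure D3:**
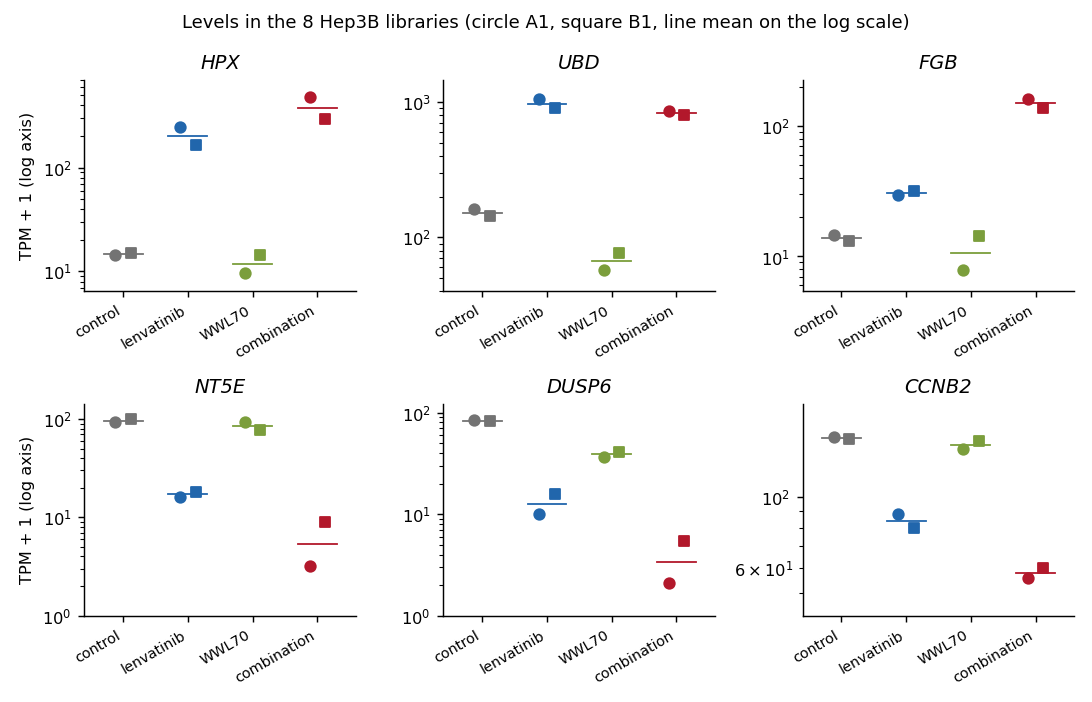
TPM + 1 on a log y axis in the 8 Hep3B libraries by group for HPX, UBD, FGB, NT5E, DUSP6 and CCNB2, with A1 as circles, B1 as squares and a line at the mean on the log scale. HPX reaches 480 and 293 TPM with the combination against 243 and 166 TPM with lenvatinib alone, and NT5E reaches 2.19 and 7.93 TPM against 15.0 and 17.3 TPM.

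Of 15 tested apolipoprotein and lipoprotein assembly genes 4 rose and none fell, with a median of 0.90 (log2), 1.19 in A1 and 0.39 in B1, and with 9 higher and 3 lower at an unadjusted p under 0.05. Without combination A1 4 rose and 1 fell, and with the length trend removed 7 rose and 3 fell. APOC3, which slows the clearance of triglyceride-rich particles, went from 26.9 and 27.9 TPM to 438 and 152 TPM, a rise of 3.19 ± 0.43. LIPC, hepatic lipase, went from 16.3 and 22.7 TPM to 84.4 and 60.4 TPM. APOE did not pass (limma adjusted p = 0.0609), at 3004 and 3131 TPM with WWL70 and 10661 and 4564 TPM with the combination. APOB, the very long structural transcript of low-density lipoprotein, had 1055 and 1355 TPM with WWL70, 211 TPM in combination A1 and 1555 TPM in combination B1, so the combination libraries lay on either side of WWL70 (limma adjusted p = 0.335).

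Complement genes went both ways: of 17 tested, 4 rose and 4 fell, with a median of -0.43 (log2) that was -0.39 in A1 and 0.11 in B1 and near 0 under median-ratio scaling (-0.0027). C1R and C1S, the proteases of the first component, were higher. C1S went from 5.15 and 7.40 TPM to 33.9 and 43.3 TPM, a rise of 2.45 ± 0.21, and C1R from 21.4 and 25.9 TPM to 80.4 and 100.015 TPM. Their inhibitor SERPING1 went from 47.8 and 53.8 TPM to 111 and 110 TPM, a rise of 1.11. The fourth that rose was C6, by 2.33. C8A, a subunit of the membrane attack complex, went from 5.11 and 6.18 TPM to 1.13 and 1.18 TPM. The others that fell were MASP1, by 1.41, and the near-identical C4A and C4B, by 1.43 and 1.60, whose reads cannot be told apart with certainty.

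Other liver functions were mixed. Of 15 genes of the urea cycle and amino acid breakdown 3 rose and 3 fell. ALDH4A1, a mitochondrial enzyme of proline breakdown, went from 118 and 106 TPM to 20.7 and 19.1 TPM, a change of -2.43 ± 0.17 that was alike in both libraries. CPS1, which starts the urea cycle, rose from 0.214 and 0.402 TPM to 4.51 and 8.93 TPM. CPS1 was under 1 TPM in both WWL70 libraries, so it was tested only through the combination libraries and had to differ. HPD, of tyrosine breakdown, rose from 7.87 and 8.89 TPM to 38.8 and 26.2 TPM. Of 13 drug metabolism genes 3 rose and 3 fell. The fetal cytochrome CYP3A7 went from 1.55 and 1.62 TPM to 14.3 and 58.4 TPM, a rise of 3.54 ± 0.55 in which B1 was far above A1. The sulfotransferase SULT2A1 rose from 18.5 and 14.4 TPM to 53.1 and 69.8 TPM, GSTA1 rose from 0.121 and 0.959 TPM to 13.9 and 5.62 TPM, and CYP1A1, a target of the aryl hydrocarbon receptor, fell from 45.0 and 46.6 TPM to 9.48 and 16.6 TPM. GSTA1, like CPS1, was under 1 TPM in both WWL70 libraries and had to differ. GSTA1 has near-identical copies, and CYP3A7 has an annotated read-through transcript. Of 11 oncofetal liver genes 3 rose and 2 fell. GPC3, a proteoglycan used as a liver cancer marker, rose from 747 and 832 TPM to 1768 and 1814 TPM, and SPINK1, a trypsin inhibitor, fell from 4.35 and 6.84 TPM to 1.51 and 1.08 TPM.

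**Figure D4:**
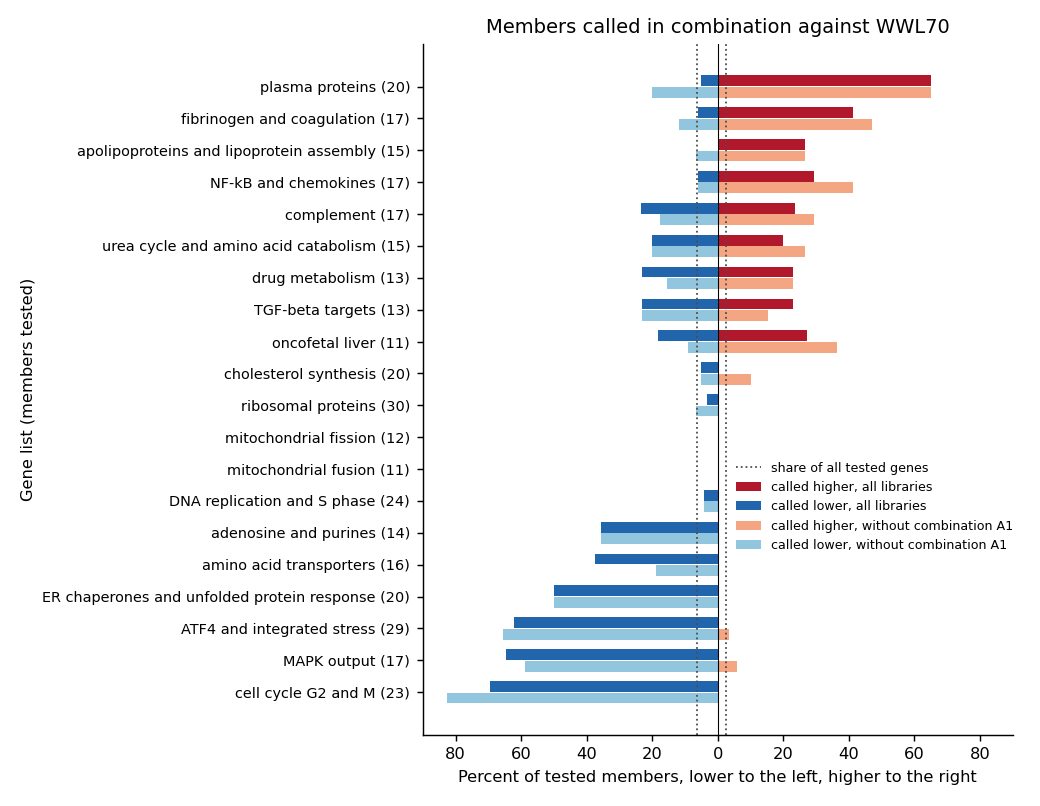
Percent of the tested members of each gene list (number tested in brackets) called lower, to the left, or higher, to the right, with the combination against WWL70 (limma adjusted p under 0.05), in dark bars with all libraries and in light bars without combination A1. Dotted lines mark the shares over all tested genes, 6.31% lower and 2.60% higher. Plasma proteins have 13 of 20 higher, genes of G2 and mitosis 16 of 23 lower, and ATF4 targets 18 of 29 lower.

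Most of the output genes of RAS and ERK signalling fell. Of 17 tested, 11 fell and none rose, with 12 lower and 1 higher at an unadjusted p under 0.05, and the median change was -1.53 (log2). Without combination A1 10 fell and 1 rose. With the length trend removed 10 fell and 3 rose, and the median was -0.88. Under median-ratio scaling 8 fell and 2 rose. In 12 of the 17 both combination libraries lay below both WWL70 libraries, beside 41.1% of all tested genes. In 4 they lay above both, beside 15.3%. DUSP6, the phosphatase that switches ERK off, went from 35.3 and 40.4 TPM to 1.10 and 4.40 TPM, a change of -3.52 ± 0.39 (limma adjusted p = 0.00206). The Sprouty genes, feedback inhibitors of receptor tyrosine kinases, were low in both combination libraries: SPRY2 went from 18.1 and 19 TPM to 2.64 and 5.92 TPM, and SPRY1 from 22.5 and 19.4 TPM to 1.32 and 3.33 TPM. ETV4, a transcription factor induced by ERK, went from 30.1 and 33.3 TPM to 12.2 and 6.71 TPM, with B1 the lower. Of the 6 tested receptors that lenvatinib blocks, limma called 0. At an unadjusted p under 0.05 there were 3 lower and 0 higher, beside 4294 of all 12468 tested genes.

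Genes of the integrated stress response and of protein folding in the endoplasmic reticulum were lower. Of 29 tested targets of ATF4, the transcription factor of amino acid shortage, 18 fell and none rose, with 22 lower and 0 higher at an unadjusted p under 0.05, a median of -0.93 (log2), and 19 lower and 1 higher without combination A1. DDIT4, an inhibitor of the growth kinase mTOR, went from 123 and 133 TPM to 29.2 and 28.3 TPM, a change of -2.11 ± 0.23. The secreted glycoprotein STC2 fell from 54.2 and 51.2 TPM to 7.88 and 14.2 TPM. SHMT2 and MTHFD2, mitochondrial enzymes of folate metabolism, fell by 1.01 and 1.28. Under median-ratio scaling only 5 of the ATF4 list were called lower and 1 higher, and the median stayed below 0. Of 20 genes for chaperones and other parts of the unfolded protein response, 10 fell and none rose, with 17 lower and 0 higher at an unadjusted p under 0.05, a median of -1.04, and 10 lower without combination A1. HSPA5, the chief chaperone of that compartment, went from 869 and 809 TPM to 240 and 357 TPM, and HSP90B1 from 1118 and 1009 TPM to 306 and 449 TPM. HYOU1, a further chaperone, went from 180 and 162 TPM to 76.5 and 72.9 TPM, a change of -1.18 ± 0.13. With the length trend removed the change of HYOU1 was -0.58 and its call was lost (limma adjusted p = 0.148). HERPUD1, of the degradation route, went from 121 and 109 TPM to 24.0 and 38.3 TPM.

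Genes of G2 and mitosis were lower, and those of DNA replication did not stand apart from all tested genes. Of 23 tested genes of G2 and mitosis 16 fell and none rose, with 22 lower and 0 higher at an unadjusted p under 0.05. Their median was -1.50 (log2), and in all 23 both combination libraries lay below both WWL70 libraries, beside 41.1% of all tested genes. Without combination A1 19 fell, and under median-ratio scaling 14 did. CCNB2, a cyclin that drives entry into mitosis, went from 140 and 148 TPM to 55.0 and 59.0 TPM, a change of -1.32 ± 0.15 (limma adjusted p = 0.002). CDC25C, the phosphatase that frees the mitotic kinase, went from 41.1 and 44.9 TPM to 9.83 and 15.3 TPM. The mitotic kinase PLK1 went from 118 and 123 TPM to 38.2 and 55.5 TPM, and UBE2C, which feeds the anaphase-promoting complex, from 199 and 211 TPM to 103 and 89.5 TPM. Of 24 replication and S phase genes 1 fell and none rose, or 4.17% called beside 8.91% of all tested genes. At an unadjusted p under 0.05 in limma 7 were lower and 2 higher, beside 4294 of all 12468. In 10 of the 24 both combination libraries lay below both WWL70 libraries, again beside 41.1%. Their median of -0.25 turned to 0.16 under median-ratio scaling. The promoters of CCNB2 and PLK1 are shown for the elements known from genes of this phase, again from RefSeq on GRCh38.p14 over the same window.
CCNB2 (chr15:59104896-59105195, plus strand): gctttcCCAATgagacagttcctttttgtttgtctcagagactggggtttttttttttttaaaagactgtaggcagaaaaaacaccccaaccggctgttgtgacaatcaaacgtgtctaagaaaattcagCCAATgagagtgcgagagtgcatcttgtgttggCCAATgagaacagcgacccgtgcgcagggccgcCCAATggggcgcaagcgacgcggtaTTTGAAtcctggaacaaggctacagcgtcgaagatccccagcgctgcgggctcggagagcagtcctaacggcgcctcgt
PLK1 (chr16:23678639-23678938, plus strand): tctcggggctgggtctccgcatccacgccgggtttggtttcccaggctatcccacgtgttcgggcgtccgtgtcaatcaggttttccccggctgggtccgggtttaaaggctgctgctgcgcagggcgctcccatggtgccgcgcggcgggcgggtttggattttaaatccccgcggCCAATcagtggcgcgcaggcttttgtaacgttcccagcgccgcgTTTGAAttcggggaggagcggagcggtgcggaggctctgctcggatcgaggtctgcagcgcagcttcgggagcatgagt
Capitals mark CCAAT (reverse complement ATTGG), bound by NF-Y, and TTTGAA (reverse complement TTCAAA), the cell cycle homology region at which the DREAM and MMB complexes sit, and the searched motifs do not overlap. In both genes TTTGAA begins 29 bases before the start. Among other genes of the list searched, CCNB1 holds CCAAT at 87 and 55 bases before the start and no TTTGAA. The CDC25C window holds neither, but it lies at the outermost annotated end of that gene. Other starts of CDC25C were not searched, so nothing is said of them. CCNB2 holds CCAAT at 244, 120, 87 and 54 bases before the start and PLK1 at 73. Of the 35116 RefSeq promoters 15.2% hold TTTGAA.

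Some amino acid transporters and genes of adenosine and purine handling fell. Of 16 tested transporters 6 fell and none rose, with 10 lower and 0 higher at an unadjusted p under 0.05, and 3 fell without combination A1 and also under median-ratio scaling. SLC1A5, the glutamine carrier, went from 262 and 279 TPM to 120 and 101 TPM, a change of -1.29 ± 0.15. SLC43A1, a carrier of branched amino acids, fell from 180 and 175 TPM to 102 and 93.7 TPM. SLC7A9, of cystine uptake, fell from 3.14 and 1.83 TPM to 0.386 and 0.643 TPM. SLC7A9 was under 1 TPM in both combination libraries, so it was tested only through the WWL70 libraries and had to differ. SLC7A2, for arginine, fell by 2.65, and its combination libraries were far apart at 5.35 and 27.7 TPM. Of 14 adenosine and purine genes 5 fell and none rose, with 9 lower and 0 higher at an unadjusted p under 0.05, and 3 fell under median-ratio scaling. NT5E had the largest fall of them.

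Of 13 targets of transforming growth factor beta 3 rose and 3 fell. BHLHE40, a clock-related repressor, fell from 67.2 and 61.9 TPM to 10.1 and 19.5 TPM, CDKN2B, an inhibitor of cyclin D kinases, fell from 22.2 and 18.8 TPM to 1.88 and 6.33 TPM, and ID2, an inhibitor of differentiation factors, rose from 126 and 134 TPM to 213 and 303 TPM. Of 17 NF-kB and chemokine genes 5 rose and 1 fell. The members named here were chosen after their values were seen. CXCL1, which draws neutrophils, rose from 2 and 4.2 TPM to 17.8 and 23.1 TPM, CCL20 rose from 13.5 and 25.8 TPM to 71.0 and 82.5 TPM, and NFKBIA, the inhibitor that NF-kB itself induces, rose from 45.0 and 52.5 TPM to 96.4 and 110 TPM. The member that fell was ICAM1, an adhesion receptor, at 94.7 and 90.9 TPM against 37.0 and 60.5 TPM. Markers of immune cells were checked beside this list. PTPRC was at or below 0.041 TPM and CD3E at 0 in all 4 libraries, the 10 immune markers together summed to 151 and 144 TPM with WWL70 and 51.2 and 79.7 TPM with the combination, mostly from CD68 (124 and 110 TPM against 37.9 and 71.4 TPM) and LYZ. The 10 fibroblast markers summed to 19.8 and 19.8 TPM against 7.15 and 16.7 TPM. The 9 endothelial markers summed to 2.05 and 0.843 TPM against 0.039 and 0.524 TPM, with VWF, KDR and LYVE1 at 0 throughout.

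ABHD6 and the mitochondrial fission genes did not pass the test with all libraries. ABHD6 (chr3:58237506-58295693) was at 10.7 and 10.1 TPM with WWL70 and at 3.18 and 7.35 TPM with the combination. Both combination libraries were lower, but the change of -0.95 ± 0.30 did not pass (limma adjusted p = 0.0786), and it was -1.45 in A1 and -0.45 in B1. It passed with the length trend removed, at -0.75 (limma adjusted p = 0.0468), in a fit that called 2468 of 12409 genes. A fit without 1 combination library rests on the other alone, so only the changes by library are given. RNA level does not report inhibition of the enzyme. FIS1, an adaptor of mitochondrial fission, had 46.1 and 46.7 TPM with WWL70 and 77.8 and 46.3 TPM with the combination. DNM1L, the fission motor, had 41.9 and 44.8 TPM against 16.5 and 46.7 TPM. In both genes combination B1 lay near the WWL70 level and A1 lay apart (limma adjusted p = 0.263 and 0.284). DNM1L overlaps YARS2. Of 12 fission genes limma called 0, with 1 higher and 3 lower at an unadjusted p under 0.05. Of 11 fusion genes it called 0, with 0 higher and 3 lower. Over all tested genes 4294 of 12468 had an unadjusted p under 0.05, so neither list stood apart. LDHA, which makes lactate, had 416 and 362 TPM with WWL70 and 255 and 265 TPM with the combination, a change of -0.58 ± 0.14 that barely passed (limma adjusted p = 0.0428). The call was lost with the length trend removed (limma adjusted p = 0.0573), with array weights (0.469) and under median-ratio scaling, where the change was -0.14 (0.65).

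To ask whether lenvatinib did the same with and without WWL70, the change was set beside that of lenvatinib alone against the Hep3B control, a comparison with which it shares no library. limma called 291 of the 12468 genes there (2.33%), 159 higher and 132 lower. Of the 159, 155 were also higher with the combination than with WWL70 and 105 were called, and none was called in the opposite direction. Of the 132, 131 were also lower and 118 were called. Across all tested genes 75.2% changed in the same direction, 2920 of 5165 that were higher with lenvatinib alone and 6452 of 7303 that were lower. The 105 shared rises are 66.0% of those with lenvatinib alone and 32.4% of those with WWL70 present, and the 118 shared falls are 89.4% and 15.0%. Pearson's r between both changes was 0.731 and Spearman's rho 0.70 over the 12468 genes, given as a description since genes are not independent. By library it was 0.755 for the A1 pair and 0.673 for the B1 pair. It was 0.349 for combination A1 with lenvatinib B1 and 0.644 for combination B1 with lenvatinib A1. Lenvatinib A1 also had a length trend, with a Spearman correlation of -0.381 from the control mean. With the length trend removed from each library, Pearson's r between both changes was 0.738. The A1-minus-B1 differences of lenvatinib and of the combination correlated at 0.707 across genes, so the value of 0.755 for the A1 pair includes what these A1 libraries share.

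**Figure D5:**
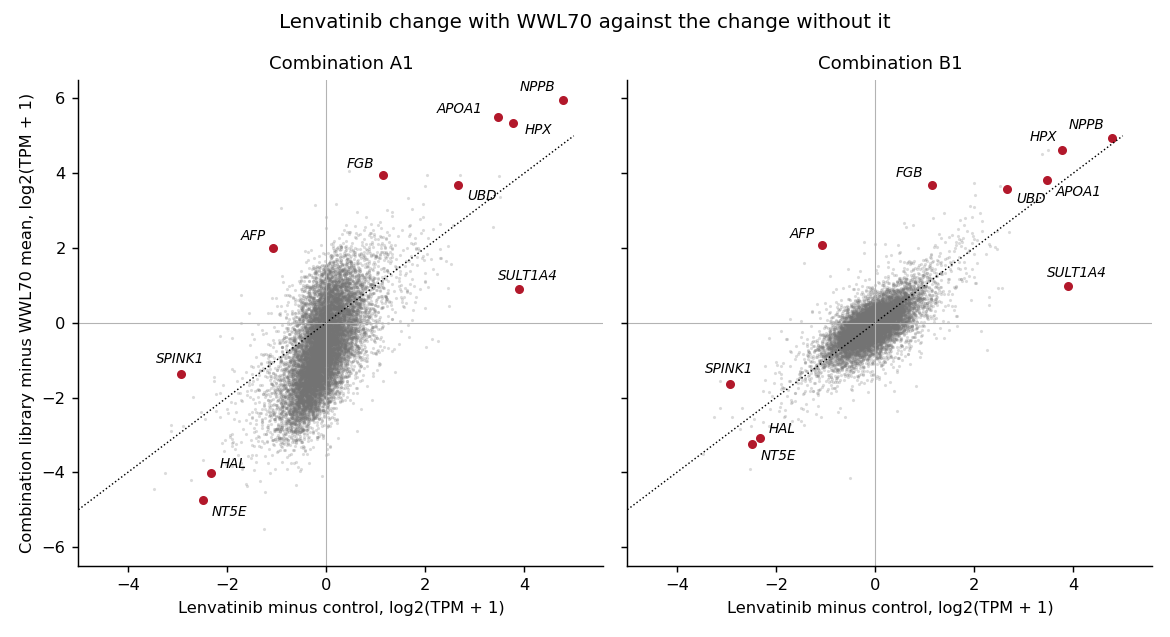
Difference of log2(TPM + 1) of each tested gene between lenvatinib and control (x axis) and between 1 combination library and the WWL70 mean (y axis), with A1 in the left panel, B1 in the right, equality as a dotted line and named genes in red. NPPB, HPX and APOA1 lie high on both axes and NT5E and HAL low on both in each panel.

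The genes with the largest rises and falls had the same direction without WWL70. NPPB was at 1.68 and 0 TPM in controls and 52.3 and 37.2 TPM with lenvatinib alone, a change of 4.78. HPX was at 13.4 and 13.9 TPM in controls and 243 and 166 TPM with lenvatinib alone. NT5E was at 91.5 and 98.6 TPM in controls and 15.0 and 17.3 TPM with lenvatinib alone, and HAL at 68.1 and 71.0 TPM against 11.8 and 14.5 TPM. In HPX, NT5E and HAL both combination libraries lay beyond both lenvatinib libraries, though the lenvatinib dose of the combination is not stated. The difference between the changes with and without WWL70 was 1.2 ± 0.42 for HPX (unadjusted p = 0.018 in limma) and -1.50 ± 0.56 for NT5E (unadjusted p = 0.025 in limma), and for NPPB it was 0.67 (unadjusted p = 0.39 in limma). limma called 0 genes for this difference (0%), with a smallest adjusted p of 0.102 and 604 genes at an unadjusted p under 0.05. None of these genes is therefore shown to respond differently when WWL70 is present. UBD had a larger change with WWL70 (3.63) than without it (2.67), but its final levels were alike: 853 and 797 TPM with the combination and 1055 and 899 TPM with lenvatinib alone. Its starting level was lower, at 56.7 and 76.3 TPM with WWL70 against 161 and 143 TPM in controls.

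Among the named genes FGB had the smallest p for that difference. It was at 13.5 and 12.2 TPM in controls, 28.6 and 30.8 TPM with lenvatinib alone, 6.85 and 13.4 TPM with WWL70 and 162 and 137 TPM with the combination, which was above every other Hep3B library. The change was 1.14 without WWL70 and 3.82 with it, a difference of 2.67 ± 0.36 (unadjusted p = 4.4e-05, limma adjusted p = 0.275). The changes of its partner chains without WWL70 were 1.29 for FGA and 1.13 for FGG. AFP, the fetal counterpart of albumin, was at 53.8 and 46.8 TPM in controls, 21.1 and 25.7 TPM with lenvatinib alone, 10.1 and 35.6 TPM with WWL70 and 80.2 and 84.5 TPM with the combination, a difference of 3.12 ± 0.61 (limma adjusted p = 0.745). The WWL70 libraries of AFP were themselves far apart. SULT1A4, named for its large difference, had a smaller change with WWL70 present than without it, and the difference did not pass. It was under 1 TPM in both WWL70 libraries, so it was tested only through the combination libraries and had to differ there. With WWL70 it went from 0.466 and 0.314 TPM to 1.57 and 1.74 TPM with the combination, a change of 0.94. Without WWL70 it went from 1.755 and 1.144 TPM in controls to 39.4 and 31.6 TPM with lenvatinib alone, a change of 3.90. The difference was -2.96 ± 1.35 (unadjusted p = 0.056 in limma, limma adjusted p = 0.745). SULT1A4 is near-identical to another sulfotransferase gene, and its counts may be split between them. Other genes with large negative differences were FAM72C, which has near-identical copies, and GPR157, which was at 7.24 and 73.6 TPM in the libraries of lenvatinib alone.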

How the data were processed

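Per the labels' protocols, Trizol was used for RNA, capture beads enriched mRNA, and an Illumina Novaseq X Plus read the libraries. Whether libraries kept strand is not stated. Per the submitters' processing notes, fastp 0.18.0 and the build hg38 were used. For aligner, quantifier and annotation, names are not given in the sources that were used.

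Values were deposited by the authors as TPM, with 20307 genes in 12 libraries. TPM keeps no sequencing depth, so no counting interval was computed. Own symbols were found for 20281 genes and 26 shared one. GENCODE 29 (GRCh38) held 20092 and gave coordinates, lengths and overlaps.

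Values were analysed as log2(TPM + 1), which understates changes of low genes. The filter kept genes that reached TPM 1 in 2 or more of the 4 libraries, of which 76 passed through the combination libraries alone (40 called) and 163 through the WWL70 libraries alone (67 called), so these had to differ. NPPB, ADH1A, CBLN2, PPP1R1A, GSTA1, CPS1, HP and SULT1A4 are among the former and SLC7A9 among the latter. The model, in limma 3.58.1 under R 4.3.3, had 6 group means over 12 libraries and a trend on level. Benjamini-Hochberg adjustment was over all tested genes. The code was first run on simulated data, with equal spread and with a wider spread in the combination group. The outcome of that run is not given here and lends no support to the p-values of these data. An exact permutation test of 2 against 2 cannot go below p = 0.333 (two-sided). Figures were drawn with matplotlib 3.10.9.

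The members, gene lists and tests were chosen with earlier results of these data known. Named were ABHD6, FIS1, DNM1L, LDHA, NPPB, HPX, NT5E and HAL, the 8 largest called rises and falls with a mean of at least 5 TPM in the higher group, up to 4 called members with the smallest adjusted p from each of at most 12 lists, and the 4 largest differences on each side between the changes with and without WWL70. Genes called with array weights and other list members were named after their values were seen. A few genes under this rule, though counted, are not reported here. Of 74 such genes 59 had a RefSeq promoter entry.

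Alternatives were pseudocounts of 0.1 and 5, other filters, median-ratio and quantile scaling, rescaling without the 50 most abundant genes, removal of a lowess trend on transcript length, limma without trend, robust or with array weights, fits on 4 or 8 libraries, a replicate block, other thresholds and each library left out.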

Additional observations from a re-analysis of the deposited data

Results flagged for a closer look

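AFP, the alpha-fetoprotein gene, had values of opposite sign with and without WWL70. With WWL70 present lenvatinib was accompanied by a change of 2.05 ± 0.43 on the log2(TPM + 1) scale (limma adjusted p = 0.0252), and without it by -1.07 (limma adjusted p = 0.32). Both libraries of each treated group lay beyond both libraries of its reference, upward in the former and downward in the latter. Of the tested genes 56 had this pattern and 275 the reverse. AFP, SAA4 and TMEM238 were named for their large differences, so a contrast between their changes was built in. The difference did not pass in limma (unadjusted p = 0.00067, adjusted p = 0.745).

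SAA4, a constitutive serum amyloid gene that overlaps a read-through with SAA2, also had changes of opposite sign, but that without WWL70 was within its SE. It was at 0 and 3.30 TPM with WWL70 and 17.6 and 8.27 TPM with the combination, a change of 2.66 ± 0.59 (limma adjusted p = 0.0305, and 0.078 without combination A1). It was at 3.07 and 3 TPM in controls and 2.21 and 2.75 TPM with lenvatinib alone. That change was -0.22 ± 0.59 (limma adjusted p = 0.92). The difference was 2.88 ± 0.84 (unadjusted p = 0.0076 in limma, not passing after adjustment).

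TMEM238, a small membrane protein gene, was at 2.11 and 4.11 TPM with WWL70 and 32.7 and 8.56 TPM with the combination, a change of 2.17 ± 0.57 (limma adjusted p = 0.0497, and 0.13 without combination A1). It was at 4.07 and 4.99 TPM in controls and 1.82 and 2.04 TPM with lenvatinib alone. That change was -0.91 ± 0.57 (limma adjusted p = 0.59). The difference was 3.08 ± 0.81 (unadjusted p = 0.0043 in limma, not passing after adjustment).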

How the results depend on the processing

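Against the 1111 calls of the combination against WWL70, limma gave 2468 with the length trend removed, 17 with array weights, 0 on the 4 libraries, 199 on the 8 Hep3B libraries and 240 at an adjusted p under 0.01. Leaving out 1 library gave 101 to 8565. It gave 101 without WWL70 A1, 181 without WWL70 B1, 8565 without combination B1, 1163 without combination A1 and 504 to 706 without any of the 8 other libraries. The difference between the changes with and without WWL70 had 0 calls, with 1 under no filter and 1 under a filter over 12 libraries, and 0 to 6164 with 1 library left out (2 without WWL70 B1, 6164 without combination B1). It cannot be had from the 4 libraries. Lenvatinib alone had 291 calls, with 193 at pseudocount 0.1, 536 after quantile normalization, 972 with the length trend removed, 2138 with array weights, 33 on the 8 libraries, 68 at 0.01 and 18 to 1627 with 1 library left out. The correlation of both changes ran from 0.515 to 0.816. With 1 combination library left out, the change of FIS1 was -0.0022 (without A1) to 0.73 (without B1) and that of DNM1L -1.34 (without B1) to 0.107 (without A1). The difference for NPPB was -0.042 without control A1 and 1.38 without control B1. The cause was not tested.

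Samples shared only letters. With the letter as a replicate block 1486 genes were called. Deviations of A1 from B1 correlated at -0.107 between WWL70 and the combination, 0.707 between lenvatinib and the combination and 0.772 between resistant Huh7 cells and the combination. WWL70 and the combination were not taken as paired, while lenvatinib, resistant Huh7 and combination A1 share a deviation. Of the settings chosen after seeing the data, crossed pairing gave 624 calls (154 for lenvatinib alone), array weights with the length trend removed 365 (3142), and leaving out A1 of lenvatinib and of the combination 1114 (555). Of 65 called named genes 15 passed in every setting but the 4-library fit.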

Other observations

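The genes below were named after their values were seen. Of 16 tested genes of haem and iron handling 4 rose and none fell, with 5 higher and 2 lower at an unadjusted p under 0.05 in limma. Beside HPX these were HP, the haemoglobin carrier haptoglobin, at 0.495 and 0.677 TPM with WWL70 and 8.85 and 3.30 TPM with the combination, TFR2, a hepatocyte sensor of transferrin, at 2.16 and 1.95 TPM against 7.18 and 5.56 TPM, and HMOX1, which breaks haem down, at 21.2 and 21.1 TPM against 41.8 and 37.0 TPM. HP was under 1 TPM in both WWL70 libraries, so it was tested only through the combination libraries and had to differ. KRT19, a keratin of bile duct cells, rose from 147 and 163 TPM to 861 and 426 TPM. Of 9 tested biliary and progenitor genes 2 rose and 0 fell. Their median was 0.05 (log2), at -0.23 in A1 and 0.51 in B1, so KRT19 does not stand for that list.

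VEGFA, the ligand of receptors that lenvatinib blocks, fell from 286 and 284 TPM to 55.9 and 149 TPM (limma adjusted p = 0.0329). Of 13 tested hypoxia genes 1 rose and 2 fell. WIPI1, of autophagosome formation, fell from 79.3 and 50.7 TPM to 9.94 and 12.2 TPM. Of 21 tested lysosome and autophagy genes 2 rose and 1 fell, so WIPI1 does not stand for that list. ANKRD1, a target of YAP, rose from 23.8 and 35.5 TPM to 93.2 and 120 TPM. Of 19 tested YAP and TEAD targets 1 rose and 1 fell. Their median was -0.17 (log2), at -0.65 in A1 and 0.34 in B1. FAAH, which like ABHD6 breaks down endocannabinoids, rose by 1.45 on the log2(TPM + 1) scale (limma adjusted p = 0.0211). Of 11 tested endocannabinoid enzyme genes, ABHD6 among them, 1 rose and 1 fell. In limma 2 were higher and 5 lower at an unadjusted p under 0.05.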
